A study of Mus musculus with 6 samples.

Results

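The genes described here encode proteins that decide whether a cell enters programmed death: the Bcl2 family, the caspases, the proteins that mitochondria release, the inhibitors of apoptosis and the death receptors with their adaptors. Of 44 such genes chosen by symbol, 39 had a gene probe on the array whose annotation gives a single symbol, with 53 probes among 34967 gene probes in all; 18069 genes were so named. The arrays were hybridised with RNA of mouse cortical precursor cells grown as neurospheres, which are floating clusters of neural precursors. Cells of 3 arrays had received an antisense oligonucleotide of 2'-O-methyl chemistry directed at the microRNA miR-335 (anti-miR-335), and cells of 3 arrays a nonsense oligonucleotide of the same chemistry named for EGFP (control), both by transfection. For all 6 cultures, cells were taken at embryonic day 12.5 from C57BL/6 dorsal telencephalon and grown without serum in bFGF (20 ng/ml), EGF (20 ng/ml), LIF (0.15 ng/ml), an insulin, transferrin and selenium supplement, heparin and progesterone. The treatment is labelled as lasting 24, with no unit. The submitters call the replicates independent and give no detail of what was repeated; the spread behind each p-value is that of these samples and may be technical. The antisense oligonucleotide blocks a microRNA and is not a gene deletion, and the microRNA itself was not measured in the data used here.

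In the mitochondrial route to apoptosis, BH3-only proteins sense damage and relieve or activate the pore-formers Bax, Bak1 and Bok, which Bcl2, Bcl2l1, Bcl2l2 and Mcl1 hold in check. Pores let cytochrome c and Diablo out of mitochondria. Cytochrome c assembles Apaf1 and caspase-9 into the apoptosome, while Diablo relieves the block that Xiap and its relatives place on caspases. Death receptors such as Fas reach the caspases from the cell surface through Fadd, and Cflar dampens that route. In the embryonic cortex, this machinery removes precursors and young neurons, and loss of Apaf1 or of caspase-9 leaves mice with excess forebrain cells.

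The microRNA that the oligonucleotide was made against is shown first, since every comparison rests on it. It is encoded on mouse chromosome 6 (build GRCm38.p6, plus strand), its 5p arm at chr6:30741314-30741336 and its 3p arm at chr6:30741354-30741375. The labels do not say which arm was targeted, so both mature sequences of RefSeq are given 5′ to 3′, with the seed in capitals.
mmu-miR-335-5p: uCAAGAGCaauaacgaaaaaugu
mmu-miR-335-3p: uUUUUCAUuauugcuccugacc

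The promoters of 4 genes follow. Bcl2l2 and Mcl1 were taken because their values shared a pattern over the 6 arrays. Diablo and Cycs were taken because their anti-miR-335 values all lay above the controls, with an unadjusted p under 0.05 by limma. No result below rests on the promoter letters. Each runs from 250 bases before to 50 bases after the RefSeq start of the gene in GRCm38.p6. Bcl2l2 lies at chr14:54883175-54883474 on the plus strand and Mcl1 at chr3:95658471-95658770 on the plus strand. Diablo lies at chr5:123524115-123524414 and Cycs at chr6:50566520-50566819, both on the minus strand. Capitals mark matches, on either strand, to the letters of an NRF1 site, a cAMP response element (TGACGTCA), an AP-1 site (TGANTCA), a GC box (GGGCGG) or a CCAAT box (CCAAT).
Bcl2l2: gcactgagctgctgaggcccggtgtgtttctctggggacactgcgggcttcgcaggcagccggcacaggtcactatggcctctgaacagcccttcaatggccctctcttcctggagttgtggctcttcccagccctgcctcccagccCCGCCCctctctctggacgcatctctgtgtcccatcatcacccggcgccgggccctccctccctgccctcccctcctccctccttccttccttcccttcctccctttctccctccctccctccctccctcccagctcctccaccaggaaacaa
Mcl1: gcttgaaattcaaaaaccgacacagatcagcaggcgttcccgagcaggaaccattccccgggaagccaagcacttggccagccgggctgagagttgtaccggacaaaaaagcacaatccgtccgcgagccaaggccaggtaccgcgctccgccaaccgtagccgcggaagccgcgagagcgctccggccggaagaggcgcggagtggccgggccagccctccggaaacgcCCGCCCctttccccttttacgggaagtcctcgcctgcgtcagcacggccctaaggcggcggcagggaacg
Diablo: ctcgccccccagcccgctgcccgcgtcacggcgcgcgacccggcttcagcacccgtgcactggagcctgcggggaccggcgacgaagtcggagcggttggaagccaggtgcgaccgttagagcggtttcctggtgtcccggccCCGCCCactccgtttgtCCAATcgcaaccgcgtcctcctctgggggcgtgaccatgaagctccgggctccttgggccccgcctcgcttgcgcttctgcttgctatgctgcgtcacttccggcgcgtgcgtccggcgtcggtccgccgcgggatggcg
Cycs: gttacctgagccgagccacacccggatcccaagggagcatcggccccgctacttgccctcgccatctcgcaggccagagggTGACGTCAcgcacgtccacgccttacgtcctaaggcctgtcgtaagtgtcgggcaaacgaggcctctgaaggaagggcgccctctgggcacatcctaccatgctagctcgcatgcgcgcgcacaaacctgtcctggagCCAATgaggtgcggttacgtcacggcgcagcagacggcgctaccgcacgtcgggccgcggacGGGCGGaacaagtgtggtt
Each of the 4 promoters holds 1 GC box. Diablo and Cycs also hold a CCAAT box, and Cycs holds a cAMP response element that begins at -169 from the start site. The NRF1 and AP-1 letters are not in these windows. Among all 32851 promoters of the table, 35.7% hold the GC box, 37.4% the CCAAT box, 1.79% the cAMP response element, 4.6% the NRF1 letters and 7.81% the AP-1 letters. Promoters were found for 35 of the 39 genes, 48 in all, of which 62.5% hold the GC box, 31.2% the CCAAT box, 4.17% the cAMP response element, 6.25% the NRF1 letters and 2.08% the AP-1 letters. All promoters of the table were counted, whether or not their genes were on the array. The 2 sets are therefore unlike, and the shares were not tested against each other. A match describes the letters and is not a binding site.

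Each intensity is given relative to the array median, which is 1. A probe was called above background when it passed the median of the array's negative control spots plus 3 scaled median absolute deviations of them, a limit between 0.492 and 0.692 on the 6 arrays, and the number of arrays limits the precision. Of the neural precursor markers, 9 of 10 were above background on at least 3 arrays, among them Sox2, Pax6, Nes, Fabp7 and Notch1; Hes1 was not above background on any array. Of 8 microglial markers 1 was above background on at least 3 arrays, and Ptprc, C1qa and Tyrobp on none. All 5 oligodendrocyte lineage markers were above background on at least 3 arrays. Olig1 lay at 18.6, 26.8 and 1.61 on anti-miR-335 replicates 1, 2 and 3, against 1.93, 24.3 and 25.9 on control replicates 1, 2 and 3. Olig2 was low on the same arrays, at 1.35, 1.35 and 0.394 against 0.515, 1.72 and 1.47. Of these 5 markers 1 had a positive and 4 a negative log2 difference, anti-miR-335 minus control (median -0.14, or -0.42 without control replicate 1). Control replicate 1 stood apart from the other controls. It correlated at 0.980 and 0.972 with control replicates 2 and 3 over 17843 probes (log2), where those correlated at 0.993 with each other. With anti-miR-335 replicates 1, 2 and 3 it correlated at 0.983, 0.983 and 0.985, higher than with either control. Control replicate 2 correlated with the same arrays at 0.989, 0.986 and 0.981, higher than control replicate 1 for replicates 1 and 2. Control replicate 3 correlated at 0.984 and 0.981 with anti-miR-335 replicates 1 and 2, and lower with replicate 3. Control replicate 1 was thus the nearest control to anti-miR-335 replicate 3 only. The cell death genes that passed without control replicate 1, and some others, are given with and without it.

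The comparison asks which of these genes differ in level when miR-335 is blocked. By limma, with Benjamini-Hochberg adjustment over all 34847 probes tested, 0 of the 53 member probes passed an adjusted p of 0.05, as did 0% of all probes. An unadjusted p under 0.05 was found for 5 member probes (9.43%), where 9.07% of all probes had one. Of these, 4 were higher under anti-miR-335 (Diablo, Cycs, Bcl2l13 and Bcl2l2; 4.91% of all probes) and Bmf was lower (4.17% of all probes). Values of the groups did not overlap for 7 member probes (13.2%), against 14.7% of all probes, 4 of them higher (7.46% of all probes) and 3 lower (7.25%). Both shares are near those of all probes. Among probes above background on at least 3 arrays, 11% had an unadjusted p under 0.05 and 17.3% did not overlap. With the brightest probe of each gene, 21 of 39 log2 differences (anti-miR-335 minus control) were positive and 18 negative, with a median of 0.01, beside a median of 0.05 and 57.4% positive over 18010 genes. In such mixed cultures, fewer cells of a type and less RNA per cell cannot be told apart.

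**Figure D1:**
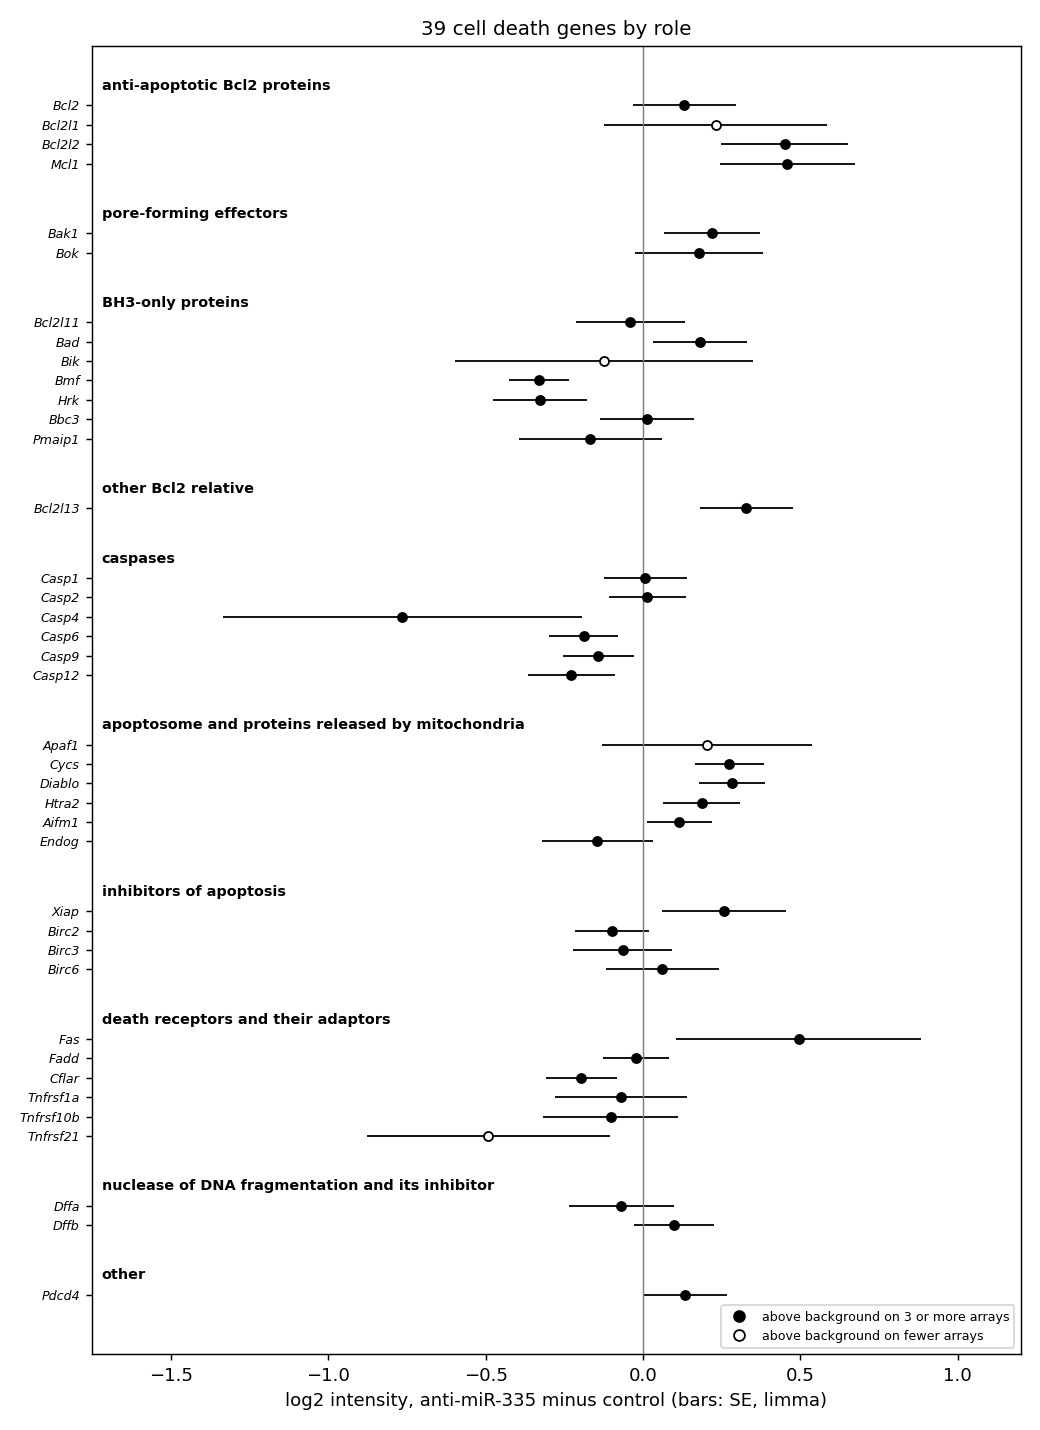
Log2 difference in intensity, anti-miR-335 minus control, for the brightest probe of each of the 39 genes, grouped by role; bars are SEs from limma with 3 arrays per group. All 4 anti-apoptotic genes lie right of 0, and Bmf and Hrk among the BH3-only genes lie left of it by more than 2 SEs; open circles mark Bcl2l1, Bik, Apaf1 and Tnfrsf21, which were not above background on any array.

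The anti-apoptotic genes Bcl2, Bcl2l1, Bcl2l2 and Mcl1 all had positive differences, with a median of 0.34, and 0 of 4 passed. Bcl2l2, which encodes Bcl-w, lay at 20.2, 21.3 and 22.6 on anti-miR-335 replicates 1, 2 and 3, against 23.3, 12.7 and 12.9 on control replicates 1, 2 and 3. Control replicate 1 was the highest of all 6 arrays, so the groups overlapped. The difference was 0.45 ± 0.20 (log2, SE, n = 3 per group), with an adjusted p of 0.550 by limma. Mcl1, a short-lived survival protein that cortical precursors depend on, lay at 8.77, 11.3 and 11.5 on the anti-miR-335 arrays, against 11.2, 6.19 and 6.34 on the controls. As for Bcl2l2, control replicate 1 lay with the anti-miR-335 arrays and far from the other controls. The difference was 0.46 ± 0.21 (log2, SE; adjusted p = 0.565 by limma).

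Without control replicate 1, Bcl2l2 and Mcl1 rose. Bcl2l2 was then higher by 0.74 ± 0.09 (log2, SE; adjusted p = 0.0133 by limma) and Mcl1 by 0.74 ± 0.12 (adjusted p = 0.0228), each over 3 anti-miR-335 and 2 control arrays. Some markers of cell types, on the brightest probe of each, also passed under the same omission, all of them higher. They were 2 of 10 precursor, 1 of 7 neuronal and 1 of 5 astrocytic markers, where 4.1% of all genes passed. The neuronal Dcx was higher by 1.06 ± 0.18 (log2, SE, adjusted p = 0.0252 by limma) and the astrocytic Aqp4 by 0.76 ± 0.10 (adjusted p = 0.0159). The dimmer Aqp4 probe, at 0.53 ± 0.15, did not pass (adjusted p = 0.0939 by limma). The dimmer Dcx probe, above background on 1 anti-miR-335 array and no control array, was at -0.19 ± 0.58 (log2, SE). The precursor genes were Slc1a3 by 0.52 ± 0.11 (adjusted p = 0.0378) and Pax6 by 0.43 ± 0.09 (adjusted p = 0.0376). Over all 6 arrays Dcx and Aqp4 already differed by 1.02 and 0.69 without overlap (adjusted p = 0.333 for both). Control replicate 1 lay 0.12 above the other controls for Dcx, 0.21 for Aqp4, 0.66 for Slc1a3 and 0.66 for Pax6 (log2). For Bcl2l2 and Mcl1 it lay 0.86 and 0.84 above them. The negative precursor, neuronal and astrocytic markers without it were Nes (-0.13), Sox2 (-0.14), Msi1 (-0.21), Hes1 (-0.43), Syt1 (-0.13), Nefl (-0.16) and S100b (-0.07). Of the neuronal markers 4 of 7 were above background on at least 3 arrays, Stmn2 and Nefl on none, and their sum ranged from 10.3 to 13.7 on the anti-miR-335 arrays and from 8.06 to 11.7 on the controls. All 5 astrocytic markers were above background on at least 3 arrays, with sums from 231.2 to 262.6 on the anti-miR-335 arrays and from 238.7 to 245.4 on the controls. Aldoc (means 128.1 and 123.9) and S100b (83.8 and 89.2) weigh most in these linear sums. Of the 5 log2 differences 4 were positive and 1 negative, with a median of 0.16, or 0.23 without control replicate 1. Precursor markers summed to between 374.9 and 405.7 on the anti-miR-335 arrays and between 331.4 and 379.4 on the controls. The part of these cell types in the Bcl2l2 and Mcl1 values was not tested. Bcl2, the founding member of the family, lay at 3.43, 4.68 and 4.01 on the anti-miR-335 arrays and 4.43, 3.12 and 3.54 on the controls. Its groups overlapped, the 95% interval of the difference ran from -0.23 to 0.49 (log2), and the adjusted p without control replicate 1 was 0.354. Bcl2l1, which encodes Bcl-xL, had no array above background on its probe.

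**Figure D2:**
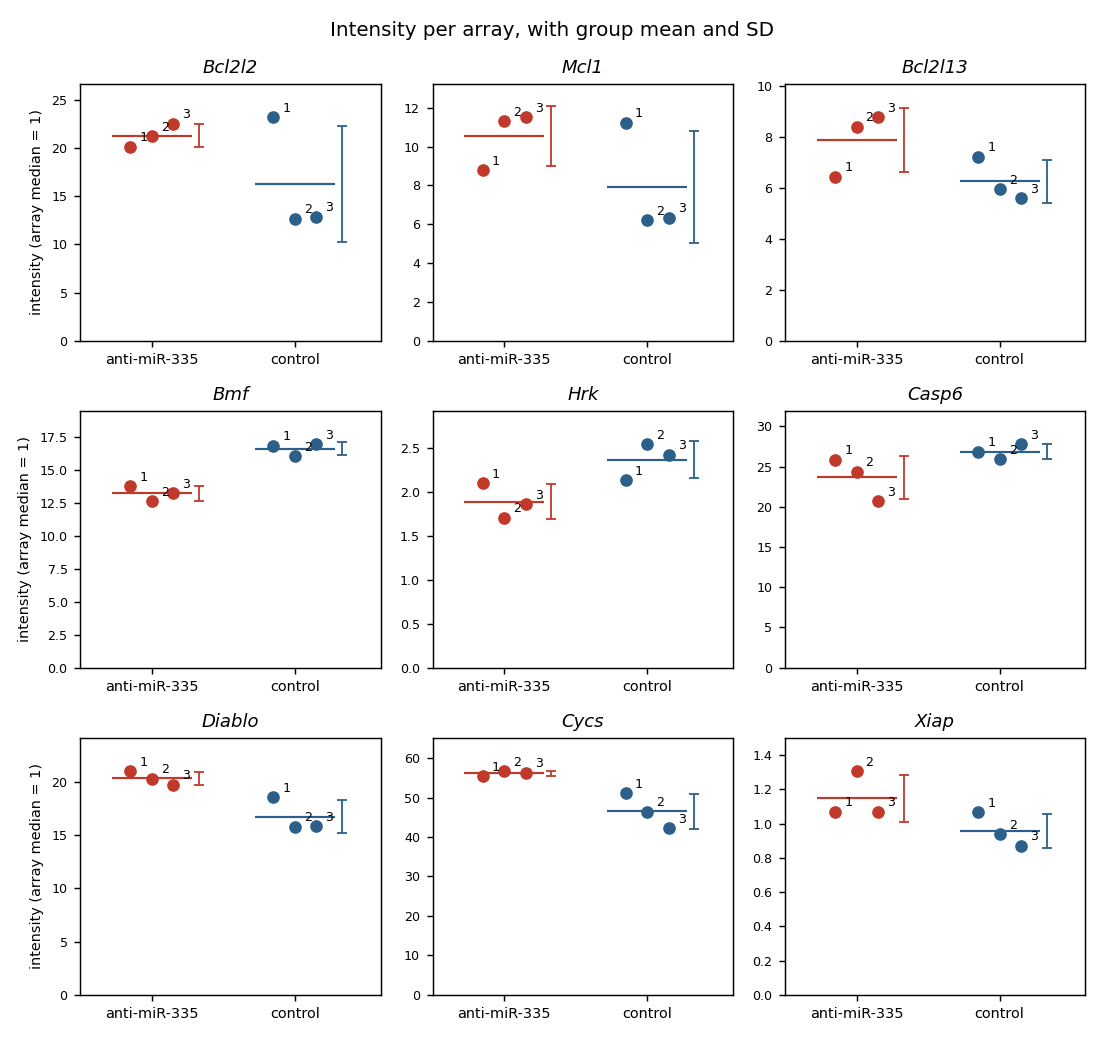
Intensity (array median = 1) of 9 genes on each anti-miR-335 (left) and control (right) array, numbered by replicate; lines are group means and bars SDs, n = 3 per group. For Bcl2l2 and Mcl1, control replicate 1 lies level with the anti-miR-335 arrays at 23.3 and 11.2, whereas for Bmf, Hrk, Casp6, Diablo, Cycs and Xiap the groups do not overlap.

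The pore-forming effectors Bak1 and Bok had small positive differences. Bak1 lay at 3.56, 4.01 and 4.80 on the anti-miR-335 arrays, against 4.13, 3.15 and 3.34 on the controls. Control replicate 1 again lay among the anti-miR-335 arrays, and the difference was 0.22 ± 0.15 (log2, SE; adjusted p = 0.700 by limma). It was 0.34 without control replicate 1 (adjusted p = 0.223) and 0.10 without anti-miR-335 replicate 3. Bok lay at 1.24, 1.27 and 1.29 on the anti-miR-335 arrays and 1.23, 1.30 and 0.877 on the controls, so that control replicate 3 alone lay apart. Bax was named by the scanner output's accession and not by the platform annotation, and is therefore not counted among the 39. It lay at 29.7, 39.2 and 30.3 on the anti-miR-335 arrays and 35.3, 26.5 and 28.1 on the controls, with overlapping groups and a difference of 0.14 ± 0.15 (log2, SE; adjusted p = 0.810 by limma).

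Among the 7 BH3-only genes measured, 5 had negative differences and 2 positive, with a median of -0.12, and 0 passed. Bmf, whose protein is released from the cytoskeleton under stress, had the smallest p of the 39 genes. It lay at 13.8, 12.7 and 13.2 on the anti-miR-335 arrays and 16.9, 16.1 and 16.97 on the controls. The groups did not overlap, and control replicate 1 lay with the other controls. The difference was -0.33 ± 0.09 (log2, SE), or 0.796 of the control level, with an unadjusted p of 0.00553 and an adjusted p of 0.418 by limma. Without control replicate 1 the adjusted p was 0.0769, still short of the threshold.

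Hrk, a BH3-only gene known from dying neurons, lay at 2.10, 1.71 and 1.86 on the anti-miR-335 arrays, against 2.14, 2.54 and 2.42 on the controls. These groups did not overlap either, though anti-miR-335 replicate 1 and control replicate 1 were close, and the difference was -0.33 ± 0.15 (log2, SE; adjusted p = 0.556 by limma). The other BH3-only genes had overlapping groups. Bad, a target of survival kinases, differed by 0.18 ± 0.15 (log2, SE). Bbc3, which encodes the p53 target Puma, differed by 0.01, with a 95% interval from -0.32 to 0.35. Pmaip1, the p53 target Noxa, differed by -0.17 ± 0.23 and Bcl2l11, which encodes Bim, by -0.04 ± 0.17 (log2, SE). Bik was not above background on any array. The probe of Bid also carries another symbol and was left out. Bcl2l13, a mitochondrial relative of the family, lay at 6.45, 8.40 and 8.79 on the anti-miR-335 arrays and 7.23, 5.94 and 5.59 on the controls. Its groups overlapped because anti-miR-335 replicate 1 lay below control replicate 1. The difference was 0.33 ± 0.15 (log2, SE; adjusted p = 0.547 by limma).

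Among the genes of the apoptosome and of proteins that leave mitochondria, 5 of 6 had a positive difference, with a median of 0.20, and 0 passed. Diablo lay at 21.0, 20.3 and 19.7 on the anti-miR-335 arrays, against 18.6, 15.8 and 15.8 on the controls. Every anti-miR-335 array lay above every control, control replicate 1 being the nearest. The difference was 0.28 ± 0.10 (log2, SE), with an unadjusted p of 0.0205 and an adjusted p of 0.491 by limma. Cycs, the gene of cytochrome c, which also carries electrons in respiration, lay at 55.5, 56.6 and 56.3 on the anti-miR-335 arrays and 51.1, 46.4 and 42.2 on the controls. The anti-miR-335 arrays were nearly equal and the controls spread, without overlap. The difference was 0.27 ± 0.11 (log2, SE; adjusted p = 0.511 by limma).

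Without control replicate 1, Diablo rose by 0.36 ± 0.08 (log2, SE; adjusted p = 0.0486 by limma), just inside the threshold, while Cycs, at 0.34 ± 0.10, had an adjusted p of 0.0874. Aifm1, a flavoprotein that can carry a caspase-independent death signal, lay at 8.25, 7.62 and 7.77 on the anti-miR-335 arrays and 7.61, 6.75 and 7.48 on the controls. Its groups were separated only by the small gap between anti-miR-335 replicate 2 and control replicate 1. Htra2, a mitochondrial protease that binds inhibitors of apoptosis, differed by 0.19 ± 0.12, and the mitochondrial nuclease gene Endog by -0.14 ± 0.18 (log2, SE), both with overlapping groups. Apaf1 was not above background on any array.

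The 6 caspase genes measured had a median difference of -0.17, 2 positive and 4 negative, and 0 passed. Casp6, an effector caspase known for cleaving lamins, lay at 25.9, 24.4 and 20.7 on the anti-miR-335 arrays, against 26.9, 25.9 and 27.8 on the controls. The groups were separated by less than the spread within the anti-miR-335 arrays, and the difference was -0.19 ± 0.11 (log2, SE; adjusted p = 0.646 by limma). Casp12, a rodent caspase of the endoplasmic reticulum, lay at 14.4, 19.6 and 17.8 on the anti-miR-335 arrays and 22.4, 17.3 and 20.9 on the controls. Its groups overlapped (-0.23 ± 0.14, log2, SE). Casp9, the initiator of the apoptosome, differed by -0.14 ± 0.11, and the initiator Casp2 by 0.01 with a 95% interval from -0.26 to 0.29 (log2).

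Casp1, which matures interleukins in the inflammasome, differed by 0.01, with a 95% interval from -0.29 to 0.30 (log2). Casp4, its relative that senses bacterial lipopolysaccharide, was above background on 1 anti-miR-335 and 2 control arrays. Near background, Casp4 had the largest difference in size of the 39 genes, at -0.76 ± 0.57 with overlapping groups (log2, SE, adjusted p = 0.722 by limma). Without control replicate 1 it was -1.28 ± 0.54 (adjusted p = 0.238). Both caspases are known from microglia. The 8 microglial markers summed to between 3.09 and 3.18 on the anti-miR-335 arrays and between 2.72 and 3.34 on the controls. Of the 8, 5 were not above background on any array. Cx3cr1, the marker above background on most arrays, lay at 0.897, 0.978 and 1.40 on the anti-miR-335 arrays and 0.584, 0.806 and 0.783 on the controls, without overlap (0.58 ± 0.25, log2, SE; adjusted p = 0.535 by limma). Of the 8 differences 4 were positive and 4 negative, and 0 passed. Ptprc was lower under anti-miR-335 by -0.83 ± 0.35 without overlap, though not above background on any array. Lyz2, above background on 1 control array, was lower by -0.93 ± 0.39 (log2, SE). The part of microglia in the caspase values was not tested. The probe of Casp8 also carries another symbol and was left out.

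The inhibitors of apoptosis had 2 positive and 2 negative differences, with a median near 0, and 0 of 4 passed. Xiap, which binds and blocks caspases directly, lay at 1.07, 1.30 and 1.07 on the anti-miR-335 arrays and 1.07, 0.939 and 0.872 on the controls, close above background. The groups did not overlap, but the nearest arrays of both groups round to 1.07, and the difference was 0.26 ± 0.20 (log2, SE; adjusted p = 0.729 by limma). Birc2, a ubiquitin ligase of tumour necrosis factor signalling, lay at 12.0, 12.2 and 13.0 on the anti-miR-335 arrays and 15.3, 11.6 and 13.2 on the controls, with control replicate 1 above the rest. Its relative Birc3 differed by -0.06 ± 0.16 and Birc6, a large ubiquitin-conjugating enzyme, by 0.06 ± 0.18 (log2, SE), both with overlapping groups.

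The death receptor genes and their adaptors had 1 positive and 5 negative differences, with a median of -0.09, and 0 of 6 passed. Cflar, the brake on caspase-8, lay at 12.1, 11.6 and 11.4 on the anti-miR-335 arrays and 14.97, 11.7 and 13.8 on the controls on its brighter probe. The groups overlapped through control replicate 2. The difference was -0.20 ± 0.11 on this probe and -0.11 ± 0.12 on the dimmer one (log2, SE; adjusted p = 0.643 and 0.812 by limma). Fadd, the adaptor of Fas, differed by -0.02, with a 95% interval from -0.25 to 0.21 (log2). Tnfrsf1a, the main receptor of tumour necrosis factor, lay at 7.30, 13.0 and 13.7 on the anti-miR-335 arrays and 11.7, 10.4 and 12.5 on the controls, so that anti-miR-335 replicate 1 was the lowest array. Tnfrsf10b, the mouse receptor of TRAIL, differed by -0.10 ± 0.21 (log2, SE).

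Fas itself was above background on 2 anti-miR-335 arrays and 1 control array, at 0.676, 0.839 and 0.684 on the anti-miR-335 arrays and 0.904, 0.282 and 0.543 on the controls. Tnfrsf21, a death receptor of developing neurons, was at 0.602, 0.539 and 0.224 on the anti-miR-335 arrays and 0.533, 0.621 and 0.611 on the controls, none above background. Ripk1, a kinase of the same route, was named by the scanner output's accession alone. It lay at 0.275, 0.790 and 0.719 on the anti-miR-335 arrays and 1.01, 0.972 and 0.693 on the controls, overlapping near background (adjusted p = 0.627 by limma). No probe was used for Tradd.

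Downstream of the caspases, Dffb encodes the nuclease that cuts DNA between nucleosomes, and Dffa its chaperone and inhibitor. Dffa lay at 5.24, 5.58 and 5.68 on the anti-miR-335 arrays and 4.32, 6.27 and 7.07 on the controls. The controls lay on both sides of the anti-miR-335 arrays, control replicate 1 lowest. Dffb lay at 2.82, 2.92 and 2.75 on the anti-miR-335 arrays and 2.87, 2.52 and 2.56 on the controls. Here control replicate 1 lay among the anti-miR-335 arrays. Pdcd4, an inhibitor of translation, lay at 8.07, 6.31 and 6.47 on the anti-miR-335 arrays and 6.70, 6.78 and 5.49 on the controls, with overlapping groups.

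Control replicate 1 bears on the differences of many of these genes. Of the 33 genes above background on all 6 arrays, it lay above both other controls for 18, below both for 6 and between them for 9. Over 10655 genes above background on all arrays it lay above both other controls for 55.8% and below both for 27.5%, so this is not particular to the cell death genes. Distances were also measured from the mean of control replicates 2 and 3. The median of the 4 anti-apoptotic genes was then 0.55 for the anti-miR-335 mean and 0.63 for control replicate 1 (log2). These medians include Bcl2l1, which was not above background on any array. The anti-miR-335 mean and control replicate 1 lay at 0.74 and 0.86 for Bcl2l2, 0.74 and 0.84 for Mcl1, and 0.27 and 0.41 for Bcl2. For Bmf, the anti-miR-335 mean was 0.32 lower than the mean of control replicates 2 and 3, from which control replicate 1 differed by 0.03 (log2). Without control replicate 1 the difference was 0.27 for Bcl2, 0.44 for Bcl2l13, -0.15 for Casp12, 0.0027 for Birc2, -0.28 for Dffa and 0.16 for Dffb (log2). It was -0.40 for Hrk, -0.0053 for Pmaip1, 0.13 for Bbc3 and 0.14 for Casp2. The adjusted p of each of these genes by limma lay above the threshold.

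**Figure D3:**
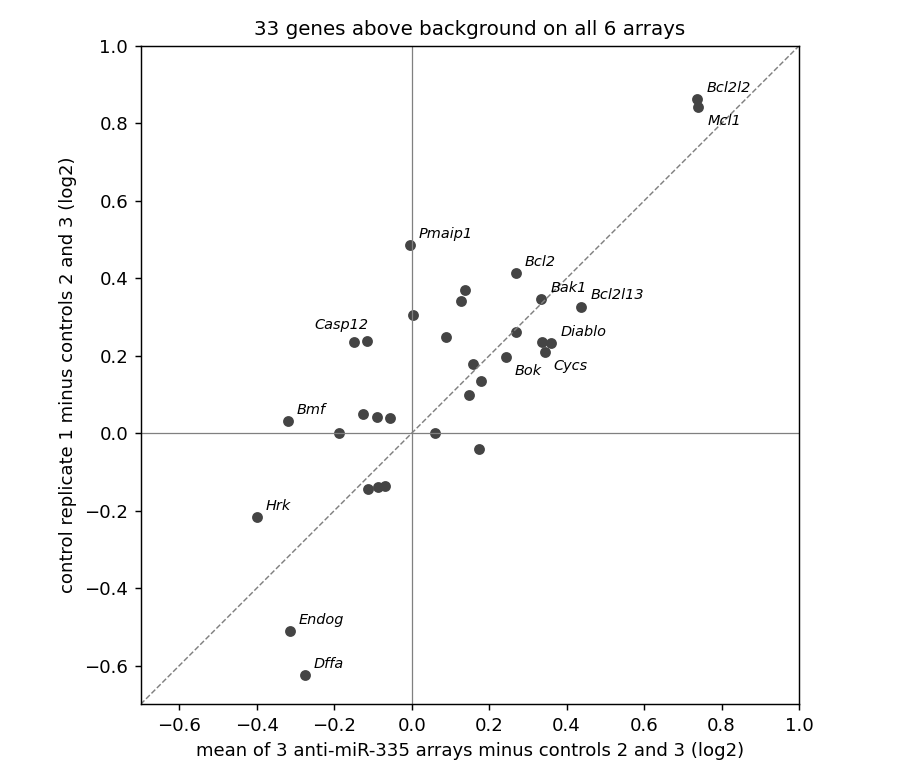
For the 33 genes above background on all 6 arrays, the log2 distance of the anti-miR-335 mean (horizontal) and of control replicate 1 (vertical) from the mean of control replicates 2 and 3, with the line of equality dashed. Both axes share control replicates 2 and 3, so points near the line need not reflect a common change; Bcl2l2 and Mcl1 lie farthest along it at 0.74 and Bmf lies off it.

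Leaving control replicate 1 out, 3 of 53 member probes (5.66%) passed an adjusted p of 0.05 by limma, Bcl2l2, Mcl1 and Diablo, all higher in the anti-miR-335 arrays, where 3.17% of all probes passed, 2.27% higher and 0.906% lower, and 4.97% of those above background on at least 3 arrays. Leaving out both replicate 1 arrays, Bcl2l2, Mcl1 and Bcl2l13 passed, where 4.57% of all probes did. Leaving out any other single array or same-numbered pair gave 0 member probes. The test without control replicate 1 was run with its position known, and 2 control arrays are left in it.

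**Figure D4:**
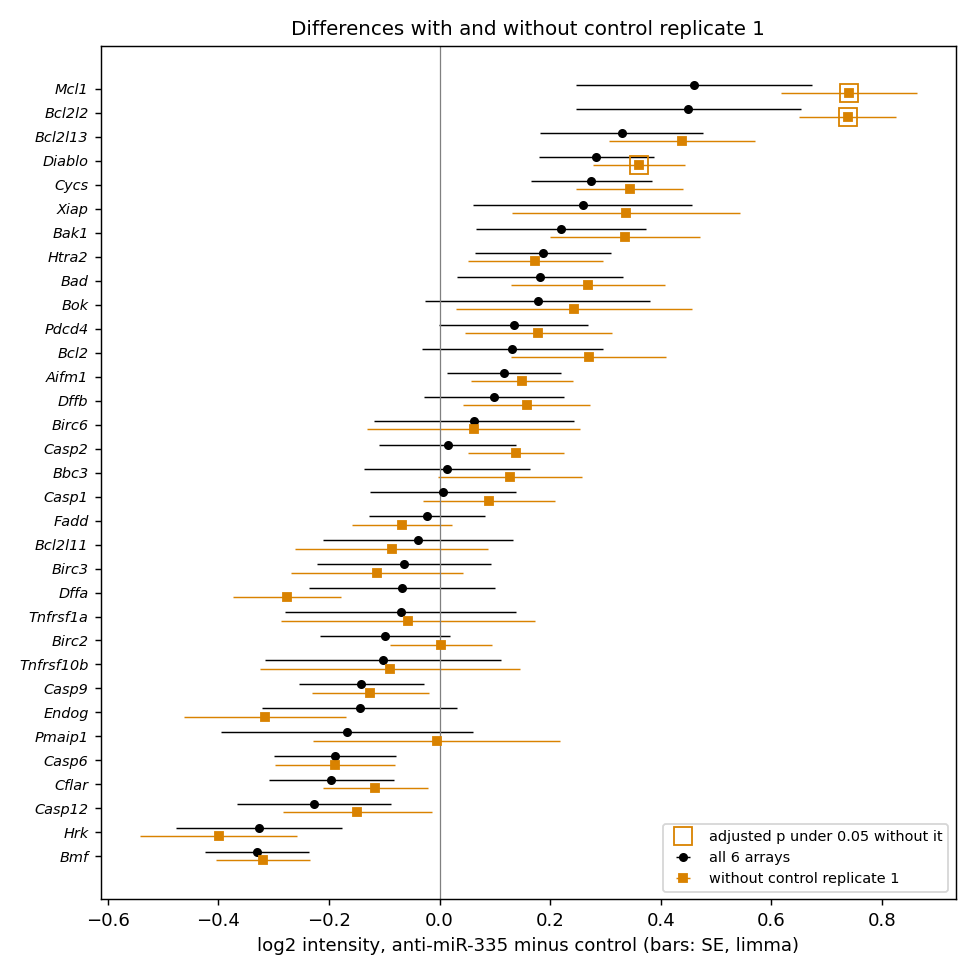
Log2 difference, anti-miR-335 minus control, for the 33 genes above background on all arrays, over all 6 arrays (circles) and without control replicate 1 (squares); bars are SEs from limma. Large open squares mark Bcl2l2, Mcl1 and Diablo, which pass without that array; Bcl2l2 shifts to 0.74 without it, against 0.45 with it, while Bmf stays at -0.32 against -0.33.

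Several genes have more than 1 probe, and the dim probes do not always follow the bright ones. Of 11 such genes, 6 had probes of opposite sign: Bmf, Hrk, Casp2, Casp6, Birc2 and Birc3. The dimmer Bmf probe differed by 0.19 ± 0.39 (log2, SE) and was not above background on any array. For Hrk the dimmer probes gave -0.03 ± 0.39 and 0.02 ± 0.46, above background on at most 1 array per group. The dimmer Casp6 probe gave 0.61 ± 0.34 and was above background on 3 anti-miR-335 arrays and 1 control array. The dimmer probes of Birc2 gave -0.02 ± 0.22 and 0.34 ± 0.50, the last not above background on any array. The dimmer probe of Casp2 gave -0.07 ± 0.53 and was not above background on any array either. The Birc3 probes gave -0.06 ± 0.16, 0.10 ± 0.41 and -0.40 ± 0.41, from brightest to dimmest.

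Of 76 other genes of the same pathways, 63 had a probe that could be tested. The probe of Pdcd5 held no value on any array. Their differences were positive for 40 and negative for 23 (median 0.07), and 0 passed by limma. An unadjusted p under 0.05 was found for 6 (9.52%), all positive, against 9.95% of all 18010 genes, and the groups did not overlap for 12.7%, against 15.3% of all genes. Neither share exceeds that of all genes. Daxx, a partner of Fas and a histone chaperone, lay at 7.55, 9.01 and 9.39 on the anti-miR-335 arrays and 7.71, 6.74 and 6.29 on the controls. Its groups overlapped by 1 array of each group (0.32 ± 0.12, log2, SE; adjusted p = 0.504 by limma). Ei24, a p53-induced gene, differed by 0.27 ± 0.11, Moap1, which binds Bax, by 0.28 ± 0.12, and Aven, an inhibitor of Apaf1, by 0.29 ± 0.13 (log2, SE). These genes did not overlap between the groups. Ikbkb, a kinase of NF-kB signalling, differed by 0.35 ± 0.15 with overlapping groups. Naip2, an inflammasome sensor, was above background on 2 anti-miR-335 arrays and 0 control arrays, at 0.775, 0.381 and 0.724 against 0.310, 0.225 and 0.486 in the controls.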

How the data were processed

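Gene expression was read on 6 single-colour CodeLink mouse arrays, for which 2 µg of total RNA per sample was labelled and hybridised for 18 h, per the labels. The authors deposited linear intensities scaled to each array's median, per the labels; the file headers of 2 arrays, replicate 1 of each group, name CodeLink Expression Analysis 4.1.0.29054. On these arrays all 35976 and 36032 deposited intensities equalled the scanner output within 0.0001, row by row, and probe types were taken from it. Software of the other arrays is not given in the sources used here. Control spots were left out. Symbols came from the platform annotation, 1 for 21615 of the gene probes, several for 681 and none for 12671, checked through the RefSeq table of GRCm38.p6, which changed 0.

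Intensities under 0.163, the 5th percentile of positive values, were raised to it before log2 was taken. Testing used limma 3.58.1 under R 4.3.3 (lmFit, eBayes with an intensity trend, two-sided, no covariate) over 34847 probes with at least 2 values per group, with a threshold at an adjusted p of 0.05. The script was tested on simulated data. Means, SDs and array values are of linear intensities. One probe per gene, the brightest on average, stands for the gene.

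The members and lists were chosen with earlier results of these data known. Values on every array are given for members with an unadjusted p under 0.05, members that pass without 1 array, and the 2 of smallest p in each role; Fas, Tnfrsf1a, Aifm1, Bcl2, Bax and Ripk1 were added after their values were seen. Of the other pathway genes the 6 of smallest p are named. Genes whose probes differ in sign are named with each probe. Scan batches could not be tested, since headers of 1 array per group were used.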

Additional observations from a re-analysis of the deposited data

How the results depend on the processing

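The alternatives were chosen with results of these data known, and medians were added to them after the data were seen. Of all probes, 0 passed with other floors, no floor, dim probes left out, no trend or the replicate block, 474 with array weights, 3 with a robust intensity trend and 1 after quantile normalization; leaving out arrays or pairs gave 0 to 1571. Of the member probes 2 passed with array weights (Bcl2l2 and Mcl1) and 0 to 3 on leaving out arrays or pairs; the other settings, the replicate block included, gave 0. Replicate numbers did not pair the arrays: deviations of same-numbered arrays correlated at -0.23, 0.04 and -0.26 over 17843 probes. Among the 39 genes the sign turned for 1 to 10 genes in each setting that left out an array or a pair, most often without the pair of replicate 3. It also turned after quantile normalization for Casp1 (-0.033) and Casp2 (-0.0501). With a floor at the 1st percentile and with no floor, Bik was at 0.0048. With array weights Birc2 was at 0.0182, Birc6 at -0.0723 and Tnfrsf1a at 0.0907, and with the mean of all probes Casp2 was at -0.0298, Casp6 at 0.21 and Birc2 at 0.0761.

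Over the leave-out settings, log2 differences ranged from -0.0944 to 0.38 for Bcl2, -0.0372 to 0.45 for Bcl2l1, -0.0121 to 0.29 for Bok, -0.19 to 0.0621 for Bcl2l11, -0.66 to 0.55 for Bik, -0.11 to 0.21 for Bbc3, -0.39 to 0.22 for Pmaip1, -0.15 to 0.17 for Casp1 and -0.0961 to 0.14 for Casp2. They ranged from -0.32 to 0.12 for Endog, -0.20 to 0.0259 for Birc2, -0.15 to 0.0588 for Birc3, -0.0952 to 0.36 for Birc6, -0.0435 to 0.95 for Fas, -0.0932 to 0.042 for Fadd, -0.27 to 0.23 for Tnfrsf1a and -0.28 to 0.0786 for Dffa. Bmf ranged from -0.36 to -0.30, Diablo from 0.24 to 0.36, Cycs from 0.20 to 0.35, Bak1 from 0.067 to 0.44, Bcl2l2 from 0.27 to 0.78 and Mcl1 from 0.25 to 0.87. The cause was not tested. The median over all 39 genes ranged from -0.03 to 0.12 over 18 settings and that of the anti-apoptotic genes from 0.17 to 0.58. On normexp-corrected, quantile-normalized scanner values of the replicate 1 pair, 15 of 39 differences lay within 1 SD of those over all arrays; that pair holds control replicate 1.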

Other observations

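Among the other pathway genes, Ikbkb and Map3k7 were singled out after their values were seen. Ikbkb, the catalytic subunit that releases NF-kB, lay at 17.004, 18.2 and 18.8 on the anti-miR-335 arrays, against 18.1, 11.9 and 12.9 on the controls. Map3k7, the kinase TAK1 upstream of it, lay at 2.55, 3.34 and 3.51 on the anti-miR-335 arrays and 3.37, 1.78 and 1.78 on the controls. In both, control replicate 1 lay with the anti-miR-335 arrays. Without it the adjusted p by limma was 0.0228 for Ikbkb and 0.0312 for Map3k7, against 0.529 and 0.585 over all arrays. The dimmer Ikbkb probe had an adjusted p of 0.253 without that array. These 2 of the 63 other pathway genes (3.17%) passed without it, where 4.1% of all genes did.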
